A study of Mus musculus with 4 samples.

Results

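This account describes which genes were bright and which stood near the bottom of the measured range in normal mouse forelimb at stage E11.5. It uses the 2 arrays titled wild type, numbered 48 and 50, out of 4 arrays in the series; the others were hybridised with forelimbs lacking Shox2 and were not used here. The embryos were of the C57BL/6 strain with the wild-type genotype, and the labels name no treatment other than freezing of the dissected tissue. Each array was hybridised with total RNA from a pool of forelimb tissue. The sample labels speak of 3 to 4 forelimbs and the design text of 3 to 4 embryos from 2 pregnancies, so the exact make-up of a pool is not settled, nor whether an array number marks a pregnancy. The spread between the pools may be technical or biological. The array platform had 25206 probe sets, of which 23185 carried the name of 1 gene and 2021 were unnamed.

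The forelimb bud at this stage is a paddle of proliferating mesenchyme from the lateral plate, covered by ectoderm whose distal rim forms the apical ectodermal ridge. The ridge sends FGF signals, the posterior mesenchyme sends Sonic hedgehog, and WNT and BMP signals pattern the back, the front and the future digits. Muscle precursors migrate in from the somites, blood vessels and nerves grow in, and the first cartilage condensations appear in the core. Tbx5, a T-box transcription factor, marks the forelimb, while Pitx1 and Tbx4 mark the hindlimb.

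All values are log2 expression, given for array 48 first and array 50 second. The values ran over the same range on both arrays, with a median of 5.89. A percentile gives the rank of a gene's mean over both arrays among all 25206 probe sets. A gene is called bright at or above percentile 75 (a log2 level of 8.21), near the floor below percentile 40 (5.60), and intermediate between these. Of the 23185 named genes, 6044 were bright (26.1%), 8036 intermediate and 9105 near the floor (39.3%). These shares are the background against which each gene list is read. Among protein-coding genes alone, 29.9% were bright and 34.0% near the floor. A percentile ranks the brightness of probe sets, which depends on the probes as well as on the RNA, so the order of 2 genes is not an order of transcript numbers. There is 1 group and n = 2 pools, so no test was run.

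The floor was checked with genes of the nose and tongue. Among 1392 olfactory, vomeronasal and taste receptor genes, 1331 (95.6%) were near the floor and 0 were bright. Their median level was 5.20, and 95% of them read at or below 5.58, close to the 5.60 that bounds the near-floor class. Keratin-associated proteins and defensins, products of hair and of mucosal defence, gave 95 of 113 near the floor. The T cell and antibody segments gave 282 of 338, the interleukins 30 of 37, and the cytochrome P450 genes 74 of 91. Bright members numbered 6 among the segments, 0 among the interleukins and 2 among the cytochrome P450 genes.

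**Figure D1:**
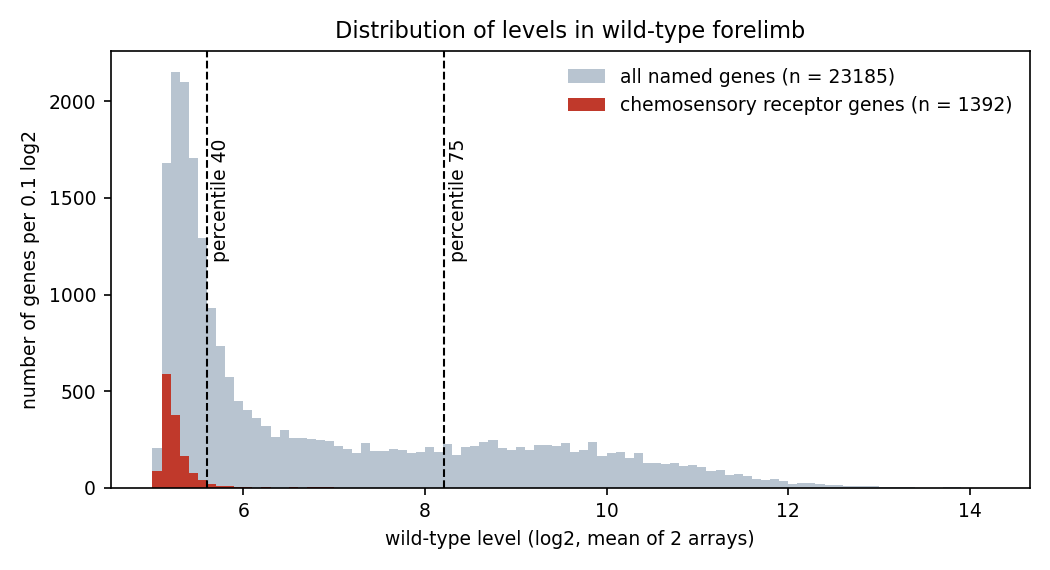
Number of named genes per 0.1 log2 of the wild-type level (mean of 2 arrays), for all 23185 named genes and for 1392 olfactory, vomeronasal and taste receptor genes; dashed lines mark percentiles 40 and 75 of all probe sets. The receptor genes lie in the low peak, with 95.6% of them below percentile 40.

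A low reading does not show that a gene is silent. The list of 15 reference genes, active in nearly every cell, had 11 bright members, but 2 were near the floor. These were Rpl3, a ribosomal protein gene, at 5.35 and 5.42 (percentile 25.3), and Eef1a1, an elongation factor gene, at 5.56 and 5.56 (percentile 38.1). Of 59 ribosomal protein genes and close relatives, 15 were bright (25.4%) and 18 near the floor (30.5%), against 26.1% and 39.3% of all named genes. At the other end, the tubulin gene Tubb5 read 13.80 and 13.80, the actin gene Actb 13.77 and 13.74 and the elongation factor gene Eef2 13.33 and 13.27, all above percentile 99. Tuba1a, another tubulin gene, differed between the pools at 9.92 and 10.96. Near-floor readings below are therefore given as readings of a probe set.

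The named genes with the highest means were led by Rn7sk, a small nuclear RNA that restrains transcription elongation (13.84 and 13.84), Tubb5 and Actb. The histone gene H2bc13 read 13.74 and 13.77 and the pseudogenes Gm10052 and Gm10051 read 13.45 and 13.33 and 13.27 and 13.28; histone genes and pseudogenes have close copies elsewhere, so these probe sets are uncertain. Mest, an imprinted gene expressed from the paternal copy in embryonic mesoderm, read 13.61 and 13.61, and Hbb-y, an embryonic globin of primitive red cells, 13.31 and 13.45. Vim, the intermediate filament of mesenchyme, read 13.28 and 13.37. The others among the top 15 were Pabpc1, which binds poly(A) tails (13.37 and 13.27), Eef2, Nedd4, a ubiquitin ligase (13.27 and 13.31), the ATP synthase subunit gene Atp5b (13.21 and 13.23), and the imprinted genes Peg3 (13.23 and 13.26) and Nnat (13.17 and 13.21).

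The promoters of bright and near-floor genes differed in base composition. For 14727 named genes with exactly 1 promoter in RefSeq (mouse build GRCm38.p6), the 250 bases before the start were read. The median ratio of observed to expected CpG was 0.122 in the lowest and 0.820 in the highest of 10 equal groups of genes ordered by level, and it rose at every step between. The motif TATAAA, sought on both strands, lay in 31.7% of the lowest group and 5.97% of the highest, against 13.6% of the promoters of all 22862 genes with exactly 1. Olfactory receptor promoters had a median of 1 CpG, and 38.4% held the motif. Among genes at or above percentile 40 alone, the median CpG ratio ran from 0.403 in the lowest group to 0.808 in the highest, so the difference of 0.698 shrank to 0.405.

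Promoters of several kinds are shown to make this concrete; they were chosen after their values were seen. The first pair are bright genes with many CpG sites, set in capitals: Gpc3, a cell surface proteoglycan that limits growth (25 CpG, ratio 0.936), and Hoxd10 (20 CpG, ratio 0.755).
Gpc3 (chrX:52613975-52614224, minus strand): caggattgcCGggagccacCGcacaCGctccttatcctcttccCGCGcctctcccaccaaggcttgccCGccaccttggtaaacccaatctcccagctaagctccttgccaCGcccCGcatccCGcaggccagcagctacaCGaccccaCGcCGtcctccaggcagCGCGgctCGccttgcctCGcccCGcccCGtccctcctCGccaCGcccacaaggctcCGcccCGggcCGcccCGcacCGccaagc
Hoxd10 (chr2:74691641-74691890, plus strand): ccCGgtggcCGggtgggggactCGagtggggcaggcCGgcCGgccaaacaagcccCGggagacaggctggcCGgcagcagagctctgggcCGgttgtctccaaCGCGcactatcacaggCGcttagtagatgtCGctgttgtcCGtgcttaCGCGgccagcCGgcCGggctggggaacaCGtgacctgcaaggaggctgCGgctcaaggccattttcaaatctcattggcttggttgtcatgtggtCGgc
Prrx1, a homeobox gene that marks limb mesenchyme, is bright at 12.66 and 12.66 (percentile 99.7) although its 250 bases hold 4 CpG, again in capitals.
Prrx1 (chr1:163313651-163313900, minus strand): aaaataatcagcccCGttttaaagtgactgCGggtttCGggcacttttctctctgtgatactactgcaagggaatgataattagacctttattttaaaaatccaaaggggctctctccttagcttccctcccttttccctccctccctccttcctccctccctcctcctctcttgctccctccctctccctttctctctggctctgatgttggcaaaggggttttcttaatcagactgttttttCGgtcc
In Hba-x, an embryonic globin, and Meox2, a homeobox gene of limb muscle precursors and mesenchyme, capitals mark the TATAAA motif on either strand, which begins 28 and 29 bases before the start. A match describes the letters and is not shown to be a site.
Hba-x (chr11:32276350-32276599, plus strand): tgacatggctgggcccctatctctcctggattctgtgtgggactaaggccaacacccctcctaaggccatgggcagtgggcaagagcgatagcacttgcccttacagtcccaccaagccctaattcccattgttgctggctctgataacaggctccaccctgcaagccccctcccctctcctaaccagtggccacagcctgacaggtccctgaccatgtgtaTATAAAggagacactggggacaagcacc
Meox2 (chr12:37108290-37108539, plus strand): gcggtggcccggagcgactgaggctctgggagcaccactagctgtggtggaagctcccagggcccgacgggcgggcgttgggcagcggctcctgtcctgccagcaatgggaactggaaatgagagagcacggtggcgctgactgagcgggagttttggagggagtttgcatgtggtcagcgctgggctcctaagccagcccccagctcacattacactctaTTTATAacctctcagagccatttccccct
Alb, the serum albumin gene of liver, read 5.39 and 5.34 (percentile 23.6), near the floor, and its 250 bases hold 2 CpG and no TATAAA.
Alb (chr5:90460620-90460869, plus strand): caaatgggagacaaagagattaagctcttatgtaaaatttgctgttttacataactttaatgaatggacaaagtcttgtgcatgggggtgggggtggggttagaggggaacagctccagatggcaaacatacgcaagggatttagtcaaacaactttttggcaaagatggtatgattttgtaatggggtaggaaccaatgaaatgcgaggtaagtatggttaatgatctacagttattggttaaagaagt

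**Figure D2:**
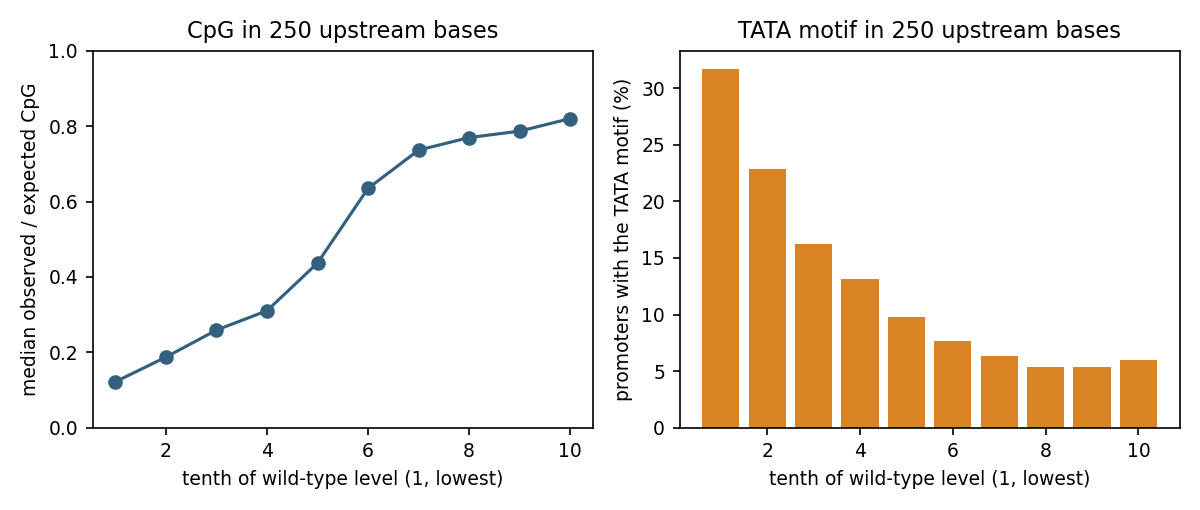
For 10 equal groups of 14727 named genes ordered by wild-type level, the left panel gives the median ratio of observed to expected CpG in the 250 bases before the start and the right panel the percent of promoters with TATAAA on either strand. The ratio rises from 0.122 to 0.820 and the motif share goes from 31.7% in the lowest group to 5.97% in the highest.

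Transcription factors of limb mesenchyme were mostly bright. Of 47 measured, 32 were bright, 13 intermediate and 2 near the floor, with a median percentile of 79.8. On array 48 alone 1 was near the floor. Tbx5 read 12.38 and 12.31 (percentile 99.6), the forelimb factor, and Osr1, a zinc finger gene of limb and joint mesenchyme, read 12.86 and 12.82 (percentile 99.8). Prrx1 stood at percentile 99.7 and its relative Prrx2 at 9.97 and 10.01 (percentile 90.4). Other bright members were Tbx15 (11.77 and 11.75), Hmga2, a chromatin protein of growing embryonic tissue (11.71 and 11.68), Snai2, a repressor of epithelial genes (11.58 and 11.56), and the targeted gene of the series, Shox2 (10.57 and 10.37, percentile 93.7).

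Factors of limb subregions spread over the range. Lmx1b, which specifies the dorsal side, read 9.07 and 9.15 (percentile 82.8), and Hand2, a posterior factor upstream of Shh, 8.73 and 8.56 (percentile 78.7). The distal LIM genes Lhx9 and Lhx2 read 8.98 and 9.24 (percentile 82.8) and 8.36 and 8.47 (percentile 76.6). Msx2 was just inside the bright class at 8.28 and 8.26 (percentile 75.5), while Msx1, its relative in distal and marginal mesenchyme, read 7.16 and 7.67 (percentile 68.5), a gap between the pools of 0.51. The near-floor members were the zinc finger gene Sall3, at 5.61 and 5.54 (percentile 38.7), which was above the near-floor limit on array 48 alone, and Foxd1, at 5.51 and 5.46 (percentile 33.2).

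The T-box family split widely. Of 15 genes, 5 were bright: Tbx5, Tbx15, Tbx18 (11.18 and 11.02), Tbx3 (10.79 and 10.64) and Tbx2 (8.27 and 8.32). Tbx2 and Tbx3 are repressors expressed at the limb margins. Tbx4 read 6.76 and 6.77 (percentile 62.4), intermediate. The near-floor members included Tbx20 of the heart (5.33 and 5.33) and Tbr1 of the brain (5.27 and 5.29).

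Hindlimb genes had 0 bright members out of 7, against 26.1% of all named genes. Near the floor were 3 of them (42.9%, close to the 39.3% of all named genes). Pitx1, which sets hindlimb identity, was near the floor at 5.48 and 5.55 (percentile 35.6). Hoxc10 and Hoxc11, used in hindlimb and lumbar levels, were near the floor too, at 5.52 and 5.46 (percentile 33.4) and 5.24 and 5.29 (percentile 13.9). Isl1, needed to start the hindlimb and also a motor neuron gene, was intermediate at 6.51 and 6.40 (percentile 58.9), and Hoxc13 read 5.73 and 5.86 (percentile 47.5).

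Hox genes encode the positional code of the limb: paralogues 9 and 10 act in the upper arm, 11 in the forearm and 13 in the hand plate. In the HoxA and HoxD clusters 7 of 19 measured genes were bright and 1 near the floor. The bright HoxD genes were Hoxd10 (10.84 and 10.90, percentile 95.8) and Hoxd11 (10.69 and 10.53, percentile 94.5). The bright HoxA genes were Hoxa10 (9.19 and 9.35), Hoxa5 (9.33 and 9.19), Hoxa9 (9.03 and 9.05), Hoxa2 (8.97 and 9.04) and Hoxa3 (8.26 and 8.28). The hand plate genes were intermediate, with Hoxd13 at 6.58 and 7.04 (percentile 62.9) and Hoxa13 at 6.15 and 6.72 (percentile 58.6). Both were higher on array 50, by 0.46 and 0.57, gaps that no other gene in these clusters reached. Hoxd1 was near the floor at 5.59 and 5.51 (percentile 37.5), and Hoxa4 and Hoxd3 stood at percentiles 56.8 and 56.2.

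In the HoxB and HoxC clusters 1 of 19 genes was bright, Hoxc6, a gene of forelimb level, at 10.43 and 10.52 (percentile 93.8). Hoxb3 and Hoxc5, of the neck and upper trunk, followed at 8.13 and 8.13 (percentile 74.4) and 7.83 and 8.12 (percentile 73.0). There were 7 near-floor genes, among them Hoxb1 (5.53 and 5.43), Hoxc9 (5.37 and 5.30) and Hoxc11. Hoxb2 and Hoxb4 were intermediate at 6.04 and 5.95 and 5.84 and 5.80.

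**Figure D3:**
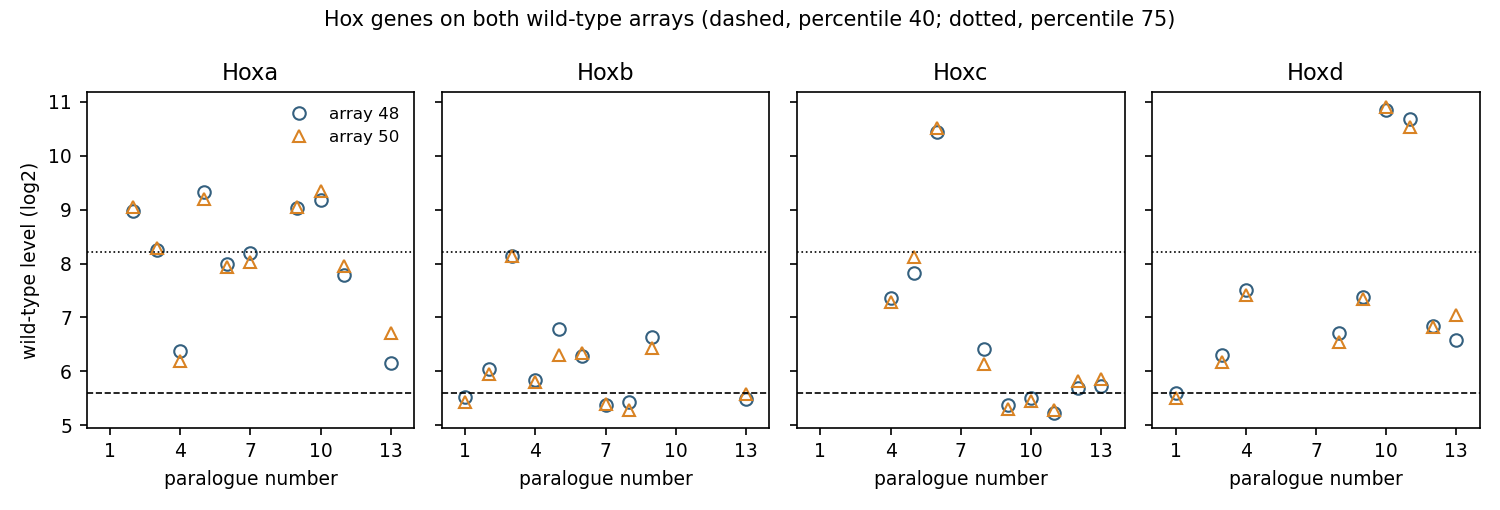
Wild-type log2 level of each measured Hox gene by paralogue number, in 4 panels for the 4 clusters, with array 48 as circles and array 50 as triangles; the dashed line is percentile 40 and the dotted line percentile 75. Hoxd10, Hoxd11 and Hoxc6 lie above 10 on both arrays, and Hoxa13 and Hoxd13 show the widest gaps between arrays in their clusters.

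Among TALE homeobox genes, the Meis and Pbx genes encode partners of Hox proteins and mark the proximal limb. The list also holds Irx, Tgif, Pknox and Mkx genes. Of 17 measured, 7 were bright and 0 near the floor. Meis2 read 11.77 and 11.60 (percentile 98.6), Meis1 10.94 and 10.88 (percentile 96.0) and Pbx3 11.11 and 10.90 (percentile 96.5). Pbx2 was bright at 8.75 and 8.46, while Meis3 and Irx1 sat near the middle of the range at percentiles 50.6 and 50.5.

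Other transcription factor families are read against the 26.1% of all named genes that were bright. The Sox family lay above that share, with 7 bright of 19 (36.8%), led by Sox9 (11.31 and 10.98), Sox11 (10.21 and 10.06) and Sox4 (9.89 and 9.48). The Fox family was close to it, with 10 of 43 bright (23.3%) and 14 near the floor, with Foxp1 at 10.99 and 10.99 and Foxp2 at 10.31 and 10.26. The LIM homeobox family had 3 of 12 bright and 6 near the floor. In the Pax family Pax1, a gene of the shoulder girdle and sclerotome, was the bright member out of 9, at 8.95 and 8.75. The Pou (11 genes), Nkx (13) and Gata (6) families had 0 bright members.

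**Figure D4:**
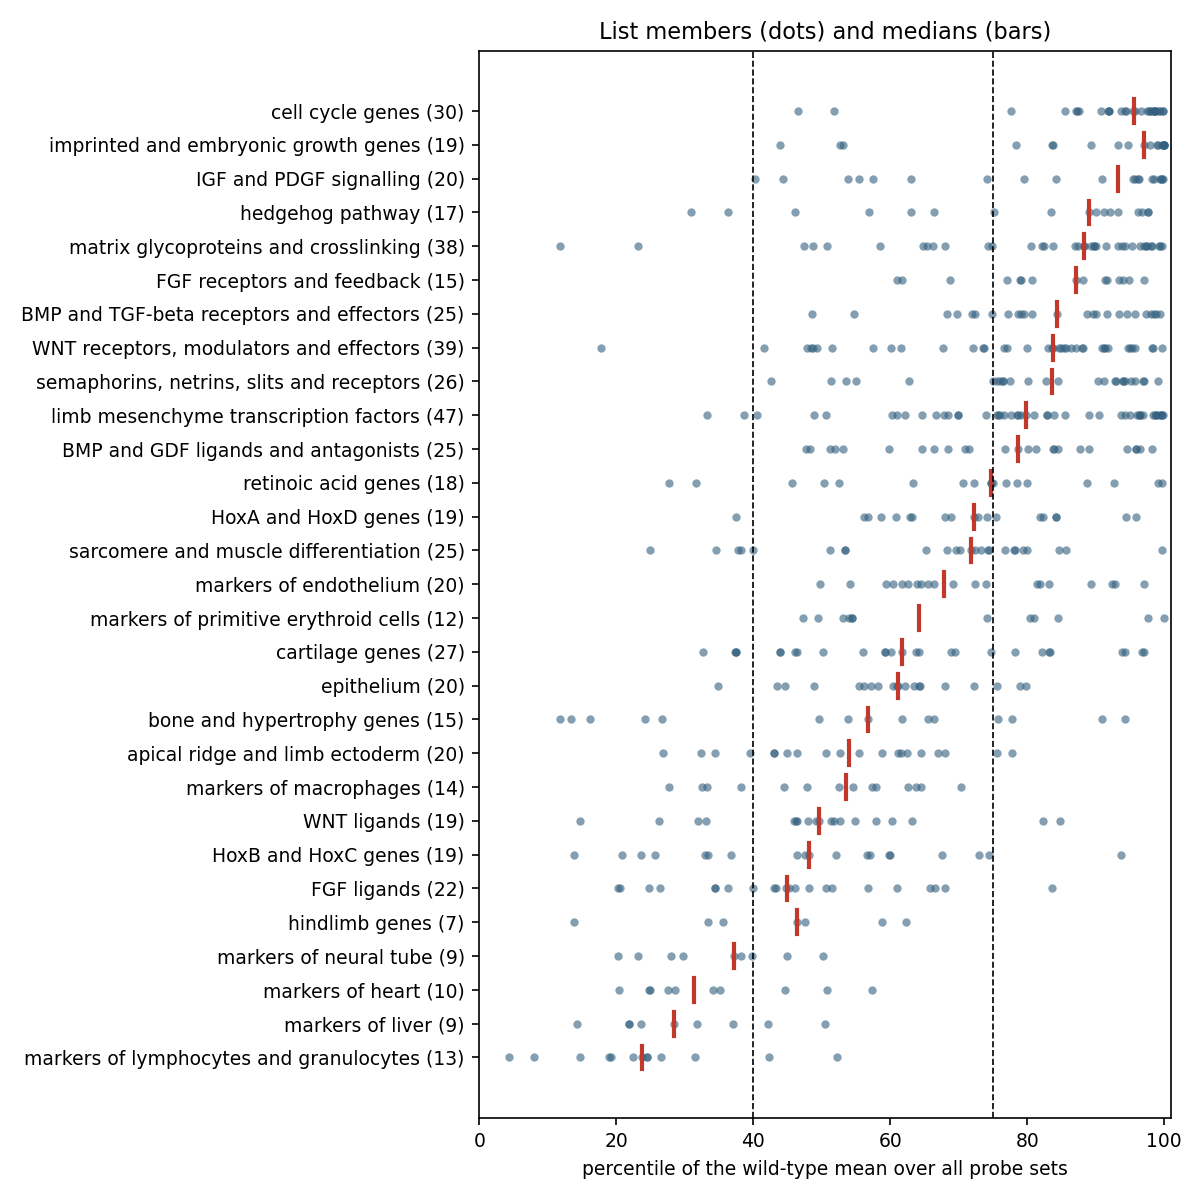
Each dot is a gene, placed by the percentile of its wild-type mean among all probe sets; rows are gene lists with the number measured, red bars are list medians, and dashed lines mark percentiles 40 and 75. The cell cycle list has its median at percentile 95.6, the FGF ligand list at 45.0, and the list for lymphocytes and granulocytes at 23.8.

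In the FGF lists most receptor and feedback genes were bright and most ligand genes were not. Of 15 FGF receptor and feedback genes, 12 were bright and 0 near the floor. Of 22 FGF ligand genes, 1 was bright (4.55%, against 26.1% of all named genes). Near the floor were 8 (36.4%, close to the 39.3% of all named genes). The receptor genes Fgfr1 and Fgfr2 read 10.70 and 10.65 (percentile 94.9) and 10.45 and 10.61 (percentile 94.1). Dusp6, a phosphatase induced by FGF signalling, read 11.08 and 11.18 (percentile 97.1). Fgfr4 and Fgfr3 were intermediate at 7.56 and 7.31 and 6.73 and 6.68, and Etv4, an FGF-induced factor, read 6.67 and 6.61 (percentile 61.0).

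The bright FGF ligand was Fgf18, at 9.33 and 9.09 (percentile 83.7). Fgf10, the mesenchymal signal that starts limb outgrowth, read 7.16 and 7.24 (percentile 66.6). Of the ridge ligands, Fgf9 was intermediate at 7.32 and 7.40 (percentile 67.9), Fgf17 and Fgf4 lay at percentiles 50.6 and 43.1, and Fgf8, the main ridge FGF, was near the floor at 5.54 and 5.46 (percentile 34.4). Fgf16 and Fgf20 read 5.30 and 5.36 and 5.32 and 5.34. Fgf2 read 6.94 and 7.29 (percentile 65.9), and Fgf1 and Fgf3 were near the floor at 5.52 and 5.48 and 5.47 and 5.72. The ridge is a thin rim of the limb, and fewer cells of a type and less RNA per cell cannot be told apart in samples of mixed tissue.

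Hedgehog pathway genes gave 11 bright of 17. Shh itself, made by a small group of posterior cells, was near the floor at 5.47 and 5.59 (percentile 36.3), and Dhh read 5.44 and 5.47 (percentile 30.9). The transducer Smo read 11.35 and 11.27 (percentile 97.7) and the co-receptors Cdon and Boc 11.23 and 11.33 (percentile 97.6) and 11.07 and 11.10 (percentile 96.8). Gli3, whose repressor form acts in the anterior limb, read 10.96 and 10.92 (percentile 96.2). Ptch1, receptor and target of the signal, read 10.08 and 10.12 (percentile 91.2), while Gli1, another target, was intermediate at 6.68 and 6.97 (percentile 63.1). Ihh, the signal of maturing cartilage, read 7.15 and 7.20 (percentile 66.5).

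The WNT lists split in the same way. Of 19 ligands 2 were bright (10.5%) and 4 near the floor (21.1%, against 39.3% of all named genes). Of 39 receptors, modulators and effectors 25 were bright and 1 near the floor. The bright ligands were Wnt5a, which directs outgrowth and cell polarity (9.29 and 9.40, percentile 84.9), and Wnt11 (9.08 and 9.02, percentile 82.4). Wnt7a, the dorsal ectodermal signal, read 5.80 and 5.72 (percentile 46.4), and Wnt3, needed for the ridge, 5.98 and 6.07 (percentile 52.7). Wnt4, Wnt2 and Wnt2b read 6.76 and 6.93, 5.88 and 5.84 and 6.01 and 5.90, and Wnt1, Wnt3a and Wnt8b were near the floor at 5.43 and 5.50, 5.43 and 5.36 and 5.28 and 5.26. Ctnnb1, encoding beta-catenin, read 12.76 and 12.67 (percentile 99.8), the co-receptor gene Lrp6 11.58 and 11.54 (percentile 98.4) and the receptor gene Ryk 11.47 and 11.48 (percentile 98.2). Ror2, a receptor for Wnt5a, read 10.17 and 10.18 (percentile 91.8). Of 10 frizzled receptor genes 5 were bright, with Fzd2 at 10.78 and 10.66 and Fzd7 at 10.30 and 9.91, and 0 were near the floor. Fzd1, Fzd3 and Fzd4 read 8.08 and 8.05, 9.11 and 9.16 and 9.46 and 9.33. Secreted inhibitors ranged from Sfrp2 at 10.73 and 10.55 (percentile 94.7) down to Sfrp4, the near-floor member, at 5.30 and 5.30 (percentile 17.8). Sfrp5 read 5.67 and 5.59 (percentile 41.6), and on array 50 alone 2 members of the list were near the floor.

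BMP and GDF ligands and antagonists had 14 bright members of 25 and 0 near the floor. Antagonists, binding proteins and a protease are counted here, whereas the FGF and WNT ligand lists hold ligands only. The lists are thus unlike in content, and the difference between them was not tested. Bmp4 and Bmp7, expressed in the ridge and mesenchyme, read 10.81 and 10.46 (percentile 94.6) and 10.96 and 10.78 (percentile 95.8), and Bmp2 was intermediate at 7.36 and 7.47 (percentile 68.5). Fstl1, an extracellular antagonist, read 11.44 and 11.57 (percentile 98.2). Bmp1, a protease that frees BMPs and processes collagen, and Twsg1, a BMP-binding protein, read 10.92 and 11.07 (percentile 96.4) and 10.88 and 10.88 (percentile 95.9). Bmp3 and Bmp6 were intermediate at 7.07 and 6.89 and 5.97 and 5.68. Grem1, the antagonist that links Shh to the ridge, read 7.48 and 7.92 (percentile 70.9). Gdf5, a joint morphogen, read 7.84 and 7.73 (percentile 71.5). Gdf10 was the member whose pools lay more than 1.5-fold apart, at 8.75 and 8.11.

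The list of BMP and TGF-beta receptors and effectors had 18 bright members of 25 and 0 near the floor. It also counts the ligand genes Tgfb1, Tgfb2 and Tgfb3. Bmpr1a and Bmpr2 read 11.53 and 11.66 (percentile 98.5) and 11.79 and 11.80 (percentile 98.9), whereas Bmpr1b, the receptor of cartilage condensations, was intermediate at 7.43 and 7.36 (percentile 68.3). Acvr1, a type I receptor gene, read 9.34 and 9.22 (percentile 84.4). Id2, a target of BMP signalling, read 12.20 and 12.19 (percentile 99.4). Smad9 and Id4 were the lowest members, at percentiles 48.6 and 54.7.

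Retinoic acid genes had 7 bright members of 18. The binding proteins Crabp1 and Crabp2 read 12.52 and 12.61 (percentile 99.7) and 11.78 and 12.01 (percentile 99.1), and the retinol transporter gene Stra6 10.41 and 10.21 (percentile 92.7). The synthesis enzymes Aldh1a2 and Rdh10 were intermediate at 8.29 and 8.07 (percentile 74.7) and 7.92 and 7.82 (percentile 72.2). The related enzymes Aldh1a1 and Aldh1a3 read 5.77 and 5.71 and 5.84 and 5.97. Of the degrading enzymes, Cyp26b1, which clears retinoic acid from the distal limb, was bright at 8.30 and 8.61 (percentile 76.9), and Cyp26a1 and Cyp26c1 were near the floor at 5.44 and 5.49 and 5.43 and 5.40.

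Growth factor signalling through IGF and PDGF was among the brightest lists, with 13 of 20 bright, 0 near the floor and a median percentile of 93.2. Igf2, the fetal growth factor, read 12.86 and 12.79 (percentile 99.8), Igfbp5, which binds it, 12.56 and 12.48 (percentile 99.7), and Pdgfra, a receptor of mesenchyme, 12.26 and 12.30 (percentile 99.5). Hgf, which guides muscle precursors into the limb, was intermediate at 6.00 and 6.18 (percentile 53.8), and its receptor gene Met read 8.18 and 8.03 (percentile 74.1). Igfbp1, made in liver, was the lowest at percentile 40.2, just outside the near-floor class. Igf1 and the receptor genes Igf1r and Igf2r read 9.96 and 10.14, 11.04 and 10.91 and 10.85 and 10.83, and Igfbp6 stood at percentile 44.3. On array 50 alone 1 member was near the floor.

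Notch genes gave 7 bright of 20, with the receptor genes Notch2 and Notch1 at 10.72 and 10.65 (percentile 94.9) and 9.66 and 9.57 (percentile 87.4) and the target Hes1 at 9.61 and 9.76 (percentile 87.9). Rbpj, which encodes the transcription factor of the pathway and is used in nearly every cell, was near the floor at 5.54 and 5.51 (percentile 35.8). The target Hes5, of neural progenitors, was near the floor at 5.46 and 5.53, and Notch4, an endothelial receptor gene, read 7.32 and 7.33. Heyl, a target in muscle precursors and vessel walls, differed most between the pools, at 7.67 and 6.88.

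Guidance molecules were bright to a large extent. Of 26 semaphorin, netrin, slit and receptor genes 21 were bright and 0 near the floor. Robo1 read 11.88 and 11.92 (percentile 99.1), its ligand gene Slit2 11.15 and 11.14 (percentile 97.1) and Sema3a, which repels motor and sensory axons, 10.46 and 10.58 (percentile 94.0). Plxna1, a semaphorin receptor gene, read 11.13 and 11.07. The semaphorin genes Sema3b, Sema3c and Sema3d read 6.12 and 6.03, 8.24 and 8.44 and 8.38 and 8.42; the lowest of the list were Slit1 (5.97 and 5.94) and Sema3e (5.59 and 5.71). On array 48 alone 1 member of the list was near the floor. Of 21 Eph and ephrin genes 12 were bright and 1 near the floor. Epha4, which steers motor axons into the dorsal limb, read 10.91 and 10.94 (percentile 96.1), and Epha7 10.59 and 10.58 (percentile 94.3); Epha6 was the near-floor member at 5.48 and 5.35 (percentile 27.8). Ephb4, Epha3, Epha2 and Epha1 read 10.56 and 10.42, 9.68 and 10.24, 5.63 and 5.66 and 6.42 and 6.35.

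Among matrix genes Fn1, encoding fibronectin, read 12.72 and 12.64 (percentile 99.8), Mmp2, a matrix protease, 12.19 and 12.25 (percentile 99.4), and Sparc 12.12 and 12.06 (percentile 99.3). Of 38 matrix glycoprotein and crosslinking genes 26 were bright and 2 near the floor, these being Tnxb, of mature connective tissue (5.39 and 5.34), and Mmp13, of hypertrophic cartilage and bone (5.25 and 5.23). Fbn2, the embryonic fibrillin, stood at percentile 98.2, and Eln, encoding elastin, 5.95 and 5.91 (percentile 50.8). Fbln1, a fibulin, read 11.22 and 11.21 (percentile 97.3).

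Of 31 proteoglycan and hyaluronan genes 17 were bright and 3 near the floor, or 1 on array 50 alone. Gpc3 read 13.13 and 13.07 (percentile 99.9), Vcan, the large proteoglycan of condensing mesenchyme, 12.60 and 12.57 (percentile 99.7), and Bgn 10.87 and 11.04 (percentile 96.2). Has2, the hyaluronan synthase of the limb, was bright at 9.38 and 9.58 (percentile 86.1), while Has1 and Has3 stood at percentiles 43.7 and 44.7. Acan, the aggrecan of cartilage, was intermediate at 6.30 and 6.83 (percentile 60.1), and Fmod, a collagen-binding proteoglycan of tendon, read 8.40 and 8.99. The brain proteoglycans Ncan and Bcan read 5.94 and 5.96 and 5.36 and 5.41, and Aspn read 5.39 and 5.62.

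Collagens had 8 bright members of 36 (22.2%, close to the 26.1% of all named genes). Near the floor were 5 (13.9%, against 39.3% of all named genes). The fibrillar genes Col1a2, Col1a1 and Col3a1 read 11.29 and 11.42 (percentile 97.8), 10.59 and 10.80 (percentile 94.9) and 10.36 and 10.52 (percentile 93.5). Col2a1, the collagen of cartilage, read 10.72 and 10.25 (percentile 93.8). Col10a1, of hypertrophic cartilage, was near the floor at 5.43 and 5.38 (percentile 26.7), as was Col4a3, of kidney and lung basement membrane, at 5.38 and 5.45 (percentile 27.7).

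Of 27 cartilage genes 8 were bright (29.6%, close to the 26.1% of all named genes), 15 intermediate and 4 near the floor. The bright ones included both regulators and the matrix gene Col2a1. Sox9, the master factor of cartilage, read 11.31 and 10.98 (percentile 97.1), Sox5 and Sox6 9.05 and 9.01 (percentile 82.2) and 9.19 and 9.14 (percentile 83.3), and the zinc finger gene Trps1 11.12 and 11.03 (percentile 96.8). Wwp2, a ubiquitin ligase induced by Sox9, read 10.60 and 10.53 (percentile 94.3). The matrix genes of mature cartilage Matn3 (5.52 and 5.58), Comp (5.51 and 5.58), Snorc (5.51 and 5.60) and Ucma (5.46 and 5.49) were the near-floor members. Nkx3-2, a repressor in early cartilage, was intermediate at 6.23 and 6.24 (percentile 56.0). In the bone list 4 of 15 were bright (26.7%) and 5 near the floor (33.3%), against 26.1% and 39.3% of all named genes. The near-floor members were Col10a1, Bglap (5.38 and 5.37), Ibsp (5.27 and 5.30), Dmp1 (5.22 and 5.30) and Mmp13. Sp7, the osteoblast factor, was intermediate at 6.24 and 6.32 (percentile 56.7), and Runx1 and Runx3 read 6.53 and 6.88 and 5.82 and 5.92. Cbfb, the partner of Runx proteins, and Mef2c, a factor of muscle and hypertrophic cartilage, were bright at 10.58 and 10.58 (percentile 94.3) and 9.88 and 10.22 (percentile 90.9).

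Joint and tendon genes gave 10 bright of 19. Scx, the tendon progenitor factor, was bright at 9.96 and 10.03 (percentile 90.4), as were Osr2 (9.47 and 9.01, percentile 84.0) and Tgfb2, a signal for tendon formation (11.20 and 11.20, percentile 97.3). Tnmd, a marker of mature tendon, and Prg4, the joint lubricant, were near the floor at 5.36 and 5.41 (percentile 25.4) and 5.29 and 5.28 (percentile 15.8). Gdf6 stood at percentile 47.8.

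Of 15 myogenic regulators 6 were bright and 2 near the floor. Myog and Myod1, which drive differentiation, read 9.70 and 9.96 (percentile 89.2) and 9.55 and 9.13 (percentile 84.9). The progenitor genes Pax7, Lbx1 and Pax3 were intermediate at 7.79 and 7.46 (percentile 70.2), 7.02 and 6.78 (percentile 63.8) and 6.24 and 6.07 (percentile 54.8). Myf6, which acts in later fibres, was near the floor at 5.39 and 5.46 (percentile 28.7). The brightest regulators were Mef2a (11.10 and 11.25, percentile 97.2) and Mef2c, which are not confined to muscle, and Tcf21, a bHLH gene of mesenchyme, was near the floor at 5.47 and 5.50.

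Of 25 sarcomere and differentiation genes 8 were bright and 5 near the floor. Actc1, the first striated actin made in embryonic muscle, read 12.48 and 12.69 (percentile 99.7), and the giant proteins Neb and Ttn 9.30 and 9.56 (percentile 85.6) and 9.17 and 9.45 (percentile 84.6). Acta1, the later skeletal actin, read 8.57 and 8.59 (percentile 78.1). Myh3, the embryonic myosin, was intermediate at 7.60 and 8.18 (percentile 72.3), whereas Myh8, the perinatal myosin, was near the floor at 5.55 and 5.58 (percentile 38.2). Ckm, the creatine kinase of mature muscle, and Myh6, the atrial myosin, were near the floor as well, at percentiles 34.5 and 24.9.

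Ectoderm was measured mainly in the intermediate class. Of 20 epithelial genes 3 were bright, 16 intermediate and 1 near the floor. The bright genes were the basal keratins Krt14 (8.68 and 8.85, percentile 79.9) and Krt5 (8.64 and 8.72, percentile 79.0) and the desmosomal gene Dsp (8.22 and 8.35, percentile 75.6). Cdh1, encoding E-cadherin, read 7.71 and 8.07 (percentile 72.3), Epcam 6.88 and 6.86 (percentile 63.5) and Krt8, a keratin of simple epithelia and periderm, 6.65 and 6.52 (percentile 60.4). Krt19 read 5.67 and 5.68 (percentile 43.4). Cldn7 was near the floor at 5.50 and 5.51 (percentile 34.8). In the ridge list 2 of 20 were bright, Dlx5 (8.49 and 8.62, percentile 77.8) and Msx2, both also expressed in mesenchyme. Sp8 and Sp6, zinc finger genes needed for the ridge, were near the floor at 5.39 and 5.41 (percentile 26.8) and 5.47 and 5.48 (percentile 32.4), together with Fgf8 and Cd44 (5.53 and 5.65, percentile 39.6).

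Of 12 erythroid markers 5 were bright, 7 intermediate and 0 near the floor. The embryonic globins Hbb-y, Hba-x (11.30 and 11.26, percentile 97.6) and Hbb-bh1 (8.76 and 8.89, percentile 80.5) were bright. Hbb-b1, an adult globin, was intermediate at 5.72 and 6.49 (percentile 54.0), and the erythroid factors Gata1 and Klf1 stood at percentiles 49.4 and 47.3. Slc4a1, the anion exchanger of red cells, read 9.19 and 9.41 (percentile 84.5). Globin genes are close relatives, so their probe sets may share signal.

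Endothelial markers gave 7 bright of 20 (35.0%, against 26.1% of all named genes), 13 intermediate and 0 near the floor. Cdh5, the endothelial cadherin, read 11.14 and 11.16 (percentile 97.1), Pecam1 9.81 and 9.90 (percentile 89.4), Emcn 10.24 and 10.26 (percentile 92.3) and the VEGF receptor gene Kdr 8.92 and 8.97 (percentile 81.4). Prox1, the lymphatic and muscle factor, read 6.48 and 7.33 (percentile 63.9), a gap of 0.85. Fli1, an endothelial and blood factor, read 10.36 and 10.29 (percentile 92.8) and the VEGF receptor gene Flt1 6.63 and 6.36 (percentile 59.4). The lowest members were Sox17 (6.09 and 6.13) and the junction gene Cldn5 (5.84 and 5.92). Among 11 markers of pericytes and smooth muscle 4 were bright, with Acta2 at 11.83 and 11.89, Pdgfrb at 10.96 and 10.92 (percentile 96.2) and Notch3 at 9.54 and 9.32 (percentile 85.7); mesenchyme and early muscle also express Pdgfrb and Acta2. Cnn1, of contractile smooth muscle, was the near-floor member at 5.55 and 5.60 (percentile 38.8); on array 50 alone there were 0. Cspg4, Rgs5 and Kcnj8, used to mark pericytes, read 6.77 and 6.81, 5.76 and 5.82 and 5.68 and 5.64.

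Of the immune and pigment cell lists, those for lymphocytes and granulocytes and for melanoblasts lay mostly near the floor and that for macrophages did not. Of 14 macrophage markers 0 were bright, 10 intermediate and 4 near the floor (28.6%, against 39.3% of all named genes and 34.0% of protein-coding genes). Their median percentile was 53.6, against 51.2 for all named genes and 56.8 for protein-coding genes, the class to which these markers belong. Cd68 read 7.77 and 7.52 (percentile 70.3) and Cx3cr1 6.66 and 6.91 (percentile 62.6), whereas Csf1r, the growth factor receptor of macrophages, read 5.93 and 6.10 (percentile 52.5) and Ptprc 5.36 and 5.47 (percentile 27.7). C1qb and C1qc, complement genes of macrophages, read 6.85 and 7.10 and 5.43 and 5.52. Fcer1g, Adgre1 and Aif1 read 6.67 and 7.13, 5.76 and 5.65 and 5.58 and 5.55. Of 13 lymphocyte and granulocyte markers 11 were near the floor. The highest were Elane (5.47 and 5.45), Mpo (5.60 and 5.70) and the antibody heavy chain gene Ighm (6.08 and 5.93). The T cell genes Cd3d, Cd3e, Cd4 and Cd8a stood at percentiles 24.5, 24.6, 26.6 and 19.2, and Ms4a1 of B cells and S100a8 of granulocytes at 7.99 and 4.36. In the mast cell and platelet list Ppbp, a platelet chemokine, was the bright member at 10.29 and 10.39 (percentile 93.0), and Mcpt4 and Tpsb2 were near the floor at 5.14 and 5.13 and 5.32 and 5.32. Gp9 and Cpa3 read 7.11 and 7.22 and 6.16 and 6.17. On array 50 alone 2 members of that list were bright. Among 7 melanoblast markers 5 were near the floor, Dct and Tyr at 5.41 and 5.51 and 5.21 and 5.19, while Kit, shared with mast cells, read 8.18 and 8.24, just outside the bright class; on array 50 alone the melanoblast list had 1 bright member. Mitf, the pigment cell factor, read 5.96 and 5.76 (percentile 49.3), and Mlana, Pmel and Tyrp1 stood at percentiles 38.8, 28.6 and 18.2.

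Nerve marker lists each held bright and near-floor members. Of 9 Schwann cell and neural crest markers 3 were bright, Fabp7 (9.94 and 9.69, percentile 89.0), Erbb3 (8.88 and 8.62, percentile 79.7) and Gfra3 (8.33 and 8.50, percentile 76.6). Sox10, the defining factor of these cells, was intermediate at 6.40 and 5.86 (percentile 54.5). Ngfr, Foxd3 and Cdh19 read 7.94 and 7.87, 6.08 and 6.26 and 5.70 and 5.56, and S100b was near the floor at 5.38 and 5.32; on array 50 alone 2 members were near the floor. Of 20 neuronal markers 2 were bright and 9 near the floor (45.0%, against 39.3% of all named genes). The bright ones were Map2 (10.58 and 10.66, percentile 94.6) and Dcx (8.81 and 8.83, percentile 80.4), whereas Tubb3, Elavl3 and Neurod1 read 5.49 and 5.64, 5.45 and 5.46 and 5.28 and 5.29. Stmn2 read 6.84 and 6.93, and Elavl4 and Neurog1 stood at percentiles 32.7 and 30.2. Neuronal cell bodies lie outside the limb, and whether this bears on these readings was not tested.

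Markers of neighbouring organs were mostly near the floor. This held for 7 of 10 heart markers, 7 of 9 liver markers, 7 of 9 neural tube markers and 8 of 10 germ line and pluripotency markers, against 39.3% of all named genes. Those 4 lists had 0 bright members. Their highest members were Nkx2-5 (6.31 and 6.35), Apoa1 (5.94 and 5.89), Nkx6-1 (6.03 and 5.76) and Prm2 (6.15 and 6.20). Next in rank were Tnni3 (6.00 and 5.86) and Gata4 (5.68 and 5.73) for heart, Apoa2 (5.66 and 5.62) and Hnf4a (5.56 and 5.52) for liver, Sox3 (5.68 and 5.76) for neural tube and Prm1 (6.08 and 6.23) for germ line. Near the floor were the heart genes Nppa and Nppb (percentiles 34.2 and 24.7), the liver genes Afp, Fga and Fgb (28.4, 14.2 and 21.8), and the neural genes Nkx2-2, Pax6, Sox1, Sox2, Dbx2 and Olig2 (39.9, 37.2, 28.0, 29.8, 23.1 and 20.3). Nkx2-2 was above the near-floor limit on array 50 alone. The pluripotency and germ cell genes Pou5f1, Nanog, Dppa3, Zfp42 and Ddx4 stood at 32.3, 24.6, 17.8, 15.9 and 8.62. The list for somite and trunk mesoderm had 2 bright members of 11, Meox2 (12.22 and 12.29, percentile 99.5) and Pax1, both also expressed in the limb or its girdle, and 2 near the floor, Cdx2 (5.54 and 5.58) and Ripply1 (5.25 and 5.22). Meox1 read 7.82 and 7.36, and Pax9, of sclerotome and limb, differed between the pools at 7.04 and 7.71.

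Cell state genes had the highest list medians. Of 30 cell cycle genes 28 were bright and 0 near the floor, with a median percentile of 95.6. Cdk4 and Pcna read 13.02 and 13.06 (percentile 99.9) and 12.88 and 13.15 (percentile 99.9), and the proliferation marker Mki67 11.64 and 11.59 (percentile 98.5). The cyclin genes Ccnd2, Ccna2 and Ccnb2 read 12.26 and 12.11, 12.07 and 12.05 and 11.39 and 11.35, and Top2a, a topoisomerase, 11.66 and 11.78. The inhibitors Cdkn2b and Cdkn2a were the intermediate members, at 5.91 and 6.04 (percentile 51.8) and 5.73 and 5.80 (percentile 46.6). Of 19 imprinted genes 16 were bright and 0 near the floor, with a median percentile of 97.1. The non-coding RNAs H19 and Meg3 read 12.59 and 12.65 (percentile 99.7) and 11.80 and 12.07 (percentile 99.1) and Dlk1, a Notch-like growth regulator, 10.46 and 10.31 (percentile 93.3), while Phlda2 was the lowest at percentile 43.9. Magel2 stood at percentile 52.7.

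Glycolysis and hypoxia genes were divided, with 8 bright and 3 near the floor of 19. Ldha read 12.13 and 12.22 (percentile 99.4), Pkm 11.71 and 11.78 (percentile 98.8) and the glucose transporter gene Slc2a1 11.43 and 11.47 (percentile 98.1). The enzymes Hk1, Hk2, Pfkl and Pfkp stood at percentiles 63.8, 61.1, 82.7 and 54.2. Aldoa, a core glycolytic enzyme, was near the floor at 5.69 and 5.47 (percentile 38.9), and the hypoxia targets Car9 and Adm read 5.57 and 5.51 and 5.33 and 5.38.

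Of the sex-linked genes, Xist, which acts in X inactivation, was bright in both pools at 12.83 and 12.88 (percentile 99.8). Near the floor were Sry (5.48 and 5.51), Kdm5d (5.56 and 5.41), Uty (5.08 and 5.24) and Eif2s3y (5.37 and 5.26) from the Y chromosome, and Tsix, the antisense partner of Xist (5.39 and 5.35); overlapping antisense genes may share signal. Of 13 named Y-linked genes on the array, 92.3% were near the floor and 0 were bright.

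By class of RNA, 29.9% of 19525 protein-coding genes and 2.49% of 2051 long non-coding RNA genes were bright. The brightest long non-coding RNAs were Xist, H19 and Malat1 (12.54 and 12.55). Of 529 miRNA genes 33 were bright and 315 near the floor. The labels do not say which form of RNA these probe sets detect, so they are not read as mature miRNA. The pair Mir181b-1 (10.51 and 9.07) and Mir181b-2 (10.07 and 9.60) were both bright and share a mature product; the sequences (from RefSeq, build GRCm38.p6) show the shared strand and the partner strands that differ, with the seed, bases 2 to 8, in capitals.
mmu-miR-181b-5p: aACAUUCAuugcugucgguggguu
mmu-miR-181b-1-3p: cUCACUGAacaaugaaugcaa
mmu-miR-181b-2-3p: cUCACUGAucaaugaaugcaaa

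The pools differed little for most genes. The median absolute difference between arrays was 0.0859 (log2) for bright genes, 0.102 for intermediate and 0.0342 for near-floor genes, and 112 of 23185 named genes (0.483%) were at least 1.5-fold apart, which is 0.795% of the 14080 genes at or above percentile 40. Of these 52 were higher on array 50 and 60 on array 48, and 0 were near-floor genes. Values close to the lowest reading of 5.04 leave little room for a gap, so the 0 and the 0.0342 do not show closer pools there. Both arrays put 95.1% of named genes into the same class. This compares 1 array with 1 array, so the differences have no test.

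The widest gap was in Pcdhgb5, a clustered protocadherin, at 9.39 and 5.57; its neighbour Pcdhgb6 read 7.57 and 6.49. The histone genes H2bc4 and H2ac4 followed at 7.17 and 5.36 and 8.83 and 7.22, and Lgals9, a galectin, at 8.06 and 6.50. Array 48 was the higher one in each of these. The rest of the 10 widest were Mir181b-1, 5830417I10Rik (8.70 and 7.32), Btbd35f1 (7.31 and 6.03), Mfap1a (7.64 and 6.47), Pagr1a (10.63 and 9.46) and Lypd10, which was higher on array 50 (5.50 and 6.67). Protocadherin and histone genes have close copies, so their probe sets are uncertain.

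Both muscle lists were uneven between the pools. Of 25 sarcomere and differentiation genes 22 were higher on array 50, with a median difference of 0.15, and 3 were at least 1.5-fold apart: Myl4 (8.24 and 9.33), Tnnc1 (7.76 and 8.52) and Myh3. Of 15 myogenic regulators 10 were higher on array 48, with a median difference of -0.17; these included Pax3, Pax7, Lbx1, Myf5 (7.68 and 7.51) and Myod1 (9.55 and 9.13). Myog (9.70 and 9.96), Mef2a and Mef2c were among those higher on array 50. Over all named genes 11854 were higher on array 50 and 11187 on array 48, with a median difference of 0.00293. In the same pools 10 of 12 erythroid markers were higher on array 50 (median 0.17), led by Hbb-b1 (5.72 and 6.49), and 22 of 31 proteoglycan genes (median 0.06), led by Fmod. The cell cycle list was balanced, with 14 higher on array 50 and 16 on array 48. The part that cell composition had in the muscle differences was not tested.

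**Figure D5:**
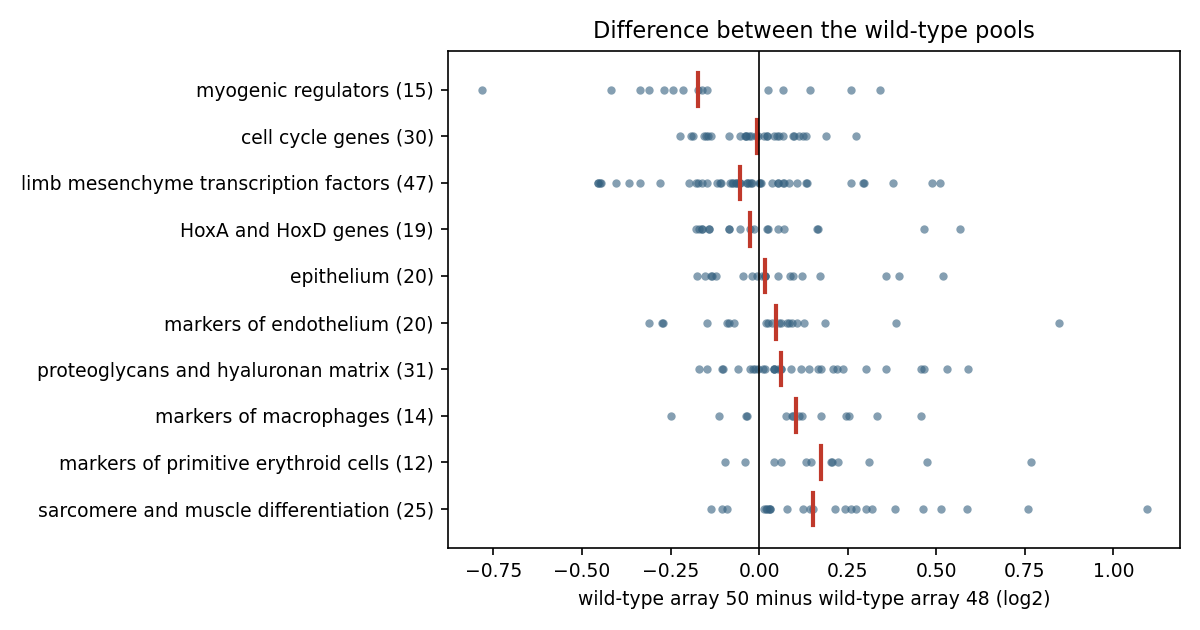
Each dot is a gene, placed by its level on wild-type array 50 minus that on wild-type array 48 (log2); rows are gene lists with the number measured and red bars are list medians. Sarcomere and erythroid genes lie mostly to the right of 0 and myogenic regulators mostly to the left.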

How the data were processed

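The authors deposited 1 value per probe set for each array; the deposited values fit a log2 scale of expression (5.04004 to 14.1191), though no unit is stated. Sorted values were identical on both wild-type arrays, as after quantile normalization, which would hide a general shift. Background correction, summarisation and tools are not given in the sources used here. TRIzol was used on the pooled limbs, and cRNA carried biotin, per the labels' protocols.

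Means and percentiles over 25206 probe sets were computed in Python 3.11.15 with pandas 2.3.3 and numpy 2.4.6, and plots with matplotlib 3.10.9; the steps were tested on simulated data. The platform annotation named 23185 probe sets, all found in RefSeq (GRCm38.p6). There were 46 lists and 31 families, with genes matched by symbol; 45 list symbols are not analysed here. Lists, thresholds and members were chosen with earlier results of these data known. Named by rule were the 3 highest and 2 lowest of each list, its leading 4 as written, members 1.5-fold apart between pools, the 15 brightest genes and the 10 widest pool differences; others were named after their values were seen. Alternatives were other thresholds, each array alone, centred arrays and named probe sets only. The number of arrays (n = 2) limits the precision.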

Additional observations from a re-analysis of the deposited data

How the results depend on the processing

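The counts of 6044 bright and 9105 near-floor named genes stayed within 1.5 times under every alternative run. Both classes are fixed ranks over all probe sets. Totals with 1 array alone or at another percentile therefore follow largely from the definition and do not check the calls. With either array alone, bright genes numbered 6038 to 6043 and near-floor genes 9101 to 9106. Requiring both arrays gave 5895 and 8681, and ranking among named probe sets only gave 5795 and 9274. Percentiles 70 and 80 gave 7244 and 4829 bright genes, percentiles 30 and 50 gave 6878 and 11329 near-floor genes, and the level of chemosensory receptors gave 8879. The 112 genes at least 1.5-fold apart between pools became 18 at 2-fold and 778 at a threshold midway between 1-fold and 1.5-fold. The rise of the median CpG ratio from the lowest to the highest of 10 equal groups of genes, 0.698, was 0.405 among genes at or above percentile 40, by construction without the lowest genes. Centring the arrays left the counts of 6044, 9105 and 112 as they were. This was certain beforehand, because the sorted values, and so the medians, are identical on both arrays. Of 690 list counts recomputed, 610 stayed within 1.5 times of the reported count and 80 did not, 50 of those at near-floor thresholds of percentile 30 or 50 and 9 with an array left out, each of these by 1 or 2 genes. The bright retinoic acid genes were 12 at percentile 70 and 4 at percentile 80, and the bright sarcomere genes 14 and 4. The bright epithelial genes and ridge genes were 0 at percentile 80. No paired analysis was possible because only wild-type arrays were used, so there were no groups to pair.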

Other observations

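The 2021 unnamed probe sets were not empty: 259 of them were bright, 786 intermediate and 976 near the floor. Their brightest member stood at the top of the range, above percentile 99 on both arrays. Among named genes, small nucleolar RNAs were bright in 49 of 106 cases, and genes annotated as pseudogene in 39 of 234.

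Adhesion and junction families are given beside the 26.1% of all named genes that were bright. Of 23 cadherin genes 6 were bright, the same share, among them Cdh11 of mesenchyme at 12.37 and 12.52 (percentile 99.6) and Cdh2 of condensing cells, which stood at percentile 98.3. Of 27 integrin genes 9 were bright (33.3%), led by Itgb1 at 10.62 and 10.75 (percentile 94.9), and 8 were near the floor, among them the leukocyte members Itgal (5.53 and 5.48) and Itgam (5.46 and 5.49). The connexin genes Gja1 and Gjb2 were the bright members of 16 (12.5%), at 11.17 and 11.17 (percentile 97.2) and 10.18 and 10.32 (percentile 92.3). Claudins had 0 bright members of 23. Of 32 chemokine genes 2 were bright (6.25%), Cxcl14 at 11.73 and 11.90 (percentile 98.9) and Cxcl12 at 10.45 and 10.21 (percentile 92.9). Among 56 clustered protocadherins 10 were bright (17.9%), all of them of the gamma cluster, and 15 were near the floor, of the alpha and beta clusters.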
